A study of Mus musculus with 8 samples.

Results

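The transcripts described here are those of 8 mouse genes for interferon-inducible GTPases: the guanylate-binding proteins Gbp2, Gbp2b, Gbp3 and Gbp7, and the immunity-related GTPases Irgm1, Irgm2, Igtp and Iigp1. They were taken as the genes with these symbols in the annotation of the array, and all 8 were measured, among 18193 genes in all. Each gene was represented by its probe set (a group of short probes against the same transcript) with the highest mean over the arrays, and 11 of 45101 probe sets carried exactly 1 of these symbols. The 8 genes were chosen on their differences between knockdown and control arrays in these same data, so their levels and differences are a description and carry no test.

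RNA came from 8 samples of embryonic stem (ES) cells, a male mouse line of strain 129S4/Svjae grown with leukemia inhibitory factor, and each was measured on 1 array. All samples carried a lentiviral short hairpin RNA (shRNA), had been selected with puromycin and were passaged before collection. The hairpin was directed against GFP in 3 control samples, against Jmjd2b in 3 and against Jmjd2c in 2. Jmjd2b and Jmjd2c (Kdm4b and Kdm4c) are demethylases of lysines 9 and 36 of histone H3, and the study's title names their role in ES cell identity as the question. The labels do not say how many hairpins served per gene, whether lines were clones, or whether replicates were separate infections. Any p-value therefore measures only the spread among these arrays, which could be technical.

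Guanylate-binding proteins are large, dynamin-like GTPases that assemble on the membranes of pathogen-containing vacuoles and on bacteria in the cytosol. Immunity-related GTPases are smaller. The effector type, to which Iigp1 (also called Irga6) belongs, loads onto vacuoles, while the regulatory type, Irgm1, Irgm2 and Igtp (also called Irgm3), sits on the cell's own membranes and holds effectors inactive there. Genes of both families are known for strong induction by interferon-gamma, through promoter elements bound by STAT factors and by interferon regulatory factors (IRFs). Mouse ES cells are known for a weak interferon response.

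The target of each hairpin was lowest in its own group. Kdm4b intensity in the Jmjd2b knockdown was 6.89% of the control mean, and Kdm4c intensity in the Jmjd2c knockdown was 23.9%. The 2 Jmjd2c knockdown arrays differed widely in Kdm4c, at 306 ± 232 (SD, n = 2) with the lower at 142. The control had 1281 ± 63.2 (n = 3). Each target was also lower in the other knockdown, with Kdm4c in the Jmjd2b knockdown at 57.3% and Kdm4b in the Jmjd2c knockdown at 56.6% of their control means, without overlap with the controls. Neither of these lower levels in the other knockdown passed the test across all genes (limma, adjusted p under 0.05). All 8 listed ES cell markers were bright on every array, with summed intensities of 58012 to 58379 in the control, 48645 to 51960 in the Jmjd2b knockdown and 49858 to 50485 in the Jmjd2c knockdown. Of these markers 1 rose and 5 fell in the Jmjd2b knockdown, and 0 rose and 2 fell in the Jmjd2c knockdown. Beside every marker count here, 24.4% of all genes were called in the Jmjd2b knockdown and 9.59% in the Jmjd2c knockdown. Of 6 measured markers of T and NK lymphocytes, the cells that make interferon-gamma, 0 passed the test in either knockdown, and their summed intensity was 134 to 139, 135 to 172 and 112 to 154 in the 3 groups. Of 10 myeloid markers 0 rose, while 2 fell in the Jmjd2b knockdown and 1 fell in the Jmjd2c knockdown. Their sum was 872 to 1117 in the control, 409 to 511 in the Jmjd2b knockdown and 546 to 711 in the Jmjd2c knockdown. The lower sums came mostly from Cd68 (424 to 723 in the control, 92.0 to 180 in the Jmjd2b knockdown) and Adgre1 (200 to 215 and 91.3 to 94.9). The median log2 difference of the 10 markers was 0.03 in the Jmjd2b knockdown and -0.14 in the Jmjd2c knockdown. Ptprc, the leukocyte surface protein CD45, stayed between 15.9 and 39.0 on all arrays. Of 10 fibroblast markers 2 rose and 2 fell with the Jmjd2b hairpin and 2 fell with the Jmjd2c hairpin. Their sums were 649 to 690 (control), 384 to 437 (Jmjd2b) and 416 to 473 (Jmjd2c). The lower sums came mostly from Pdgfrb (357 to 390 in the control, 130 to 144 in the Jmjd2b knockdown) and Thy1 (106 to 123 and 28.2 to 40.9). Col1a1 (7.34 to 17.7 and 47.4 to 69.9) and S100a4 (11.5 to 17.8 and 29.7 to 49.4) were higher there. The median log2 difference of the 10 was 0.01 (Jmjd2b) and 0.02 (Jmjd2c). The 3' to 5' signal ratio of actin, which rises with RNA degradation, was 1.45 to 1.63 in the control, 1.31 to 1.42 in the Jmjd2b knockdown and 1.43 to 1.48 in the Jmjd2c knockdown. The part of the ES cell, myeloid and fibroblast signals and of this ratio in the results was not tested. By values shared exactly between arrays, the arrays fell into 3 sets: control arrays 1 and 2 with Jmjd2b knockdown array 2, control array 3 with Jmjd2b knockdown array 1, and Jmjd2b knockdown array 3 with both Jmjd2c knockdown arrays. The labels name no batch, and what these sets are is unknown.

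The promoters of the GTPase genes are shown first, because these genes are known for interferon control through short elements close to their start. RefSeq promoter sequences (GRCm38.p6) were matched by symbol for 7 of the 8 genes. The 150 bases before the annotated start are given 5' to 3' on the strand of the gene. Capitals mark matches of 2 motifs searched on both strands. The IRF-type motif is GAAA, any 2 bases, GAAA (on the other strand TTTC, any 2 bases, TTTC), a core of the element bound by IRFs. The STAT-type motif is TTCNNNGAA, which reads the same on both strands and is a core of the element bound by STAT factors.
Gbp2, chr3:142620513-142620662, plus strand: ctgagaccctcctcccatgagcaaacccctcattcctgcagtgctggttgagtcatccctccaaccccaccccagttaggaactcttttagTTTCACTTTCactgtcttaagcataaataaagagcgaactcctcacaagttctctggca
Gbp2b, chr3:142594697-142594846, plus strand: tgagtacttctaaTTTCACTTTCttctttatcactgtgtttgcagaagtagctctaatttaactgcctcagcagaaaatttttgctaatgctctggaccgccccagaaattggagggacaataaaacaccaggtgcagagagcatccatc
Gbp3, chr3:142559894-142560043, plus strand: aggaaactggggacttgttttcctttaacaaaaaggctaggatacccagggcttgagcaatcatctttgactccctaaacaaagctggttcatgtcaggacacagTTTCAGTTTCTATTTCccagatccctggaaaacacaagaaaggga
Gbp7, chr3:142530186-142530335, plus strand: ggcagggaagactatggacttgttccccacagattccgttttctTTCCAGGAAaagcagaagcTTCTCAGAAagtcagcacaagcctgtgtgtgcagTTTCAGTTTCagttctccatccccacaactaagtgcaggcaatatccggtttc
Irgm1, chr11:48871421-48871570, minus strand: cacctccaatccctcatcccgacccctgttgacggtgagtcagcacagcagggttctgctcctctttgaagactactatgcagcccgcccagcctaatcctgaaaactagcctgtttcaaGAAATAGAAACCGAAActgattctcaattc
Irgm2, chr11:58214827-58214976, plus strand: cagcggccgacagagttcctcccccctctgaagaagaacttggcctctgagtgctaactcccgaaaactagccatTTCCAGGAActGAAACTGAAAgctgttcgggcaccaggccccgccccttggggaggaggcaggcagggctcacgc
Igtp, chr11:58199406-58199555, plus strand: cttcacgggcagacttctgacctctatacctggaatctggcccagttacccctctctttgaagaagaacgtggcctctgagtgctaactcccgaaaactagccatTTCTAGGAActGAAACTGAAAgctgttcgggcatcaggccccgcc

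The IRF-type motif was found within 250 bases before to 50 after a start in all 7 of these genes, against 3.99% of the 27025 genes in the promoter table. Its first base lay 59 bases before the start in Gbp2, 137 in Gbp2b, 53 in Gbp7, 64 in Irgm2 and 34 in Igtp. Gbp3 and Irgm1 each had a pair of overlapping matches, from 45 and 39 bases before the start in Gbp3 and from 30 and 24 in Irgm1. A second annotated start of Gbp3 had 0 matches of either motif. TTCNNNGAA was found in Gbp7, Irgm2 and Igtp, and in 9.55% of all genes, and the same 3 genes held both motifs, as did 0.614% of all genes. Igtp and Irgm2 are neighbours on chromosome 11. Their windows of 250 bases before to 50 after the start shared an unbroken stretch of 61 identical bases. That stretch held neither motif and did not lie wholly within the bases shown. Both genes held the motifs 2 bases apart, with the STAT-type motif first (TTCTAGGAA in Igtp and TTCCAGGAA in Irgm2). In Gbp7 the motifs lay 25 and 44 bases apart. These matches describe letters, not binding.

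The levels of Gbp2, Gbp2b, Gbp3 and Gbp7 were higher in all knockdown arrays than in all control arrays. Gbp2 had intensities of 26.8, 98.1 and 62.8 in control arrays 1, 2 and 3, of 1270.1, 1879.7 and 2514 in the Jmjd2b knockdown arrays, and of 599 and 1199 in the Jmjd2c knockdown arrays. Its groups did not overlap, and the Jmjd2c knockdown lay between the other groups. On the log2(intensity + 16) scale, used for every log2 difference here, the Jmjd2b knockdown exceeded the control by 4.66 ± 0.38 (SE of the limma fit) and the Jmjd2c knockdown by 3.57 ± 0.43. Since RNA came from whole cultures, a higher level in every cell and a larger share of expressing cells cannot be told apart.

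Gbp2b, the gene named Gbp1 in older work, had the largest difference of the 8 genes in the Jmjd2b knockdown and the widest spread. Its intensities were 5.31, 89.5 and 49.5 in the control arrays, 1288, 2010.3 and 3324 in the Jmjd2b knockdown arrays, and 343 and 1155 in the Jmjd2c knockdown arrays. Control array 1 lay far under the other controls, and Jmjd2c knockdown array 1 far under its replicate, yet the groups did not overlap. The log2 difference was 5.29 ± 0.60 in the Jmjd2b knockdown and 3.62 ± 0.67 in the Jmjd2c knockdown. Against the intensity means, 48.1 ± 42.1 (SD, n = 3) in the control, 2207 ± 1032 (n = 3) and 749 ± 574 (n = 2), the control values were dim.

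Gbp3 stood at 12.0, 46.1 and 39.8 in the control arrays, at 733, 981 and 1233 in the Jmjd2b knockdown arrays, and at 408 and 335 in the Jmjd2c knockdown arrays. Both Jmjd2c arrays lay clearly apart from the other groups on either side. The log2 differences from the control were 4.41 ± 0.29 and 3.07 ± 0.33. Gbp7 changed less, with 31.9, 67.7 and 45.4 in the control, 271, 377 and 294 with the Jmjd2b hairpin, and 130.02 and 206 with the Jmjd2c hairpin, or log2 differences of 2.38 ± 0.24 and 1.52 ± 0.26. Again no group overlapped another.

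Irgm1, a regulatory GTPase that acts on host membranes, followed the guanylate-binding proteins. Its intensities were 28.6, 90.3 and 54.0 in the control arrays, 1071, 1766 and 1619.8 in the Jmjd2b knockdown arrays, and 814 and 958 in the Jmjd2c knockdown arrays. The log2 differences of 4.41 ± 0.29 and 3.70 ± 0.33 placed Irgm1 highest of the 8 genes in the Jmjd2c knockdown. The neighbours in that order, Gbp2b (3.62) and Gbp2 (3.57), lay within their standard errors of it.

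The other regulatory GTPases, Irgm2 and Igtp, lay closer to the controls than Irgm1 did. Irgm2 had 70.6, 54.4 and 47.5 in the control arrays and 169, 184 and 103 in the Jmjd2b knockdown arrays, all above the controls, but 72.5 and 65.3 in the Jmjd2c knockdown arrays, which overlapped the controls. Igtp had 173, 152 and 116 in the control arrays, 332, 397 and 197 in the Jmjd2b knockdown arrays, and 177 and 175 in the Jmjd2c knockdown arrays. The Jmjd2c arrays of Igtp lay just above the highest control. In the Jmjd2b knockdown the log2 differences were 1.17 ± 0.21 for Irgm2 and 0.95 ± 0.24 for Igtp. In the Jmjd2c knockdown they were 0.22 ± 0.23 and 0.25 ± 0.26, each about the size of its standard error.

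Iigp1, the effector GTPase of the list, was dim throughout. Its intensities were 36.1, 30.6 and 25.9 in the control, 68.5, 77.6 and 31.9 with the Jmjd2b hairpin, and 49.6 and 43.6 with the Jmjd2c hairpin. Jmjd2b knockdown array 3 lay among the controls, so this was the only member whose Jmjd2b and control arrays overlapped. The log2 differences were 0.63 ± 0.23 and 0.42 ± 0.26.

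**Figure D1:**
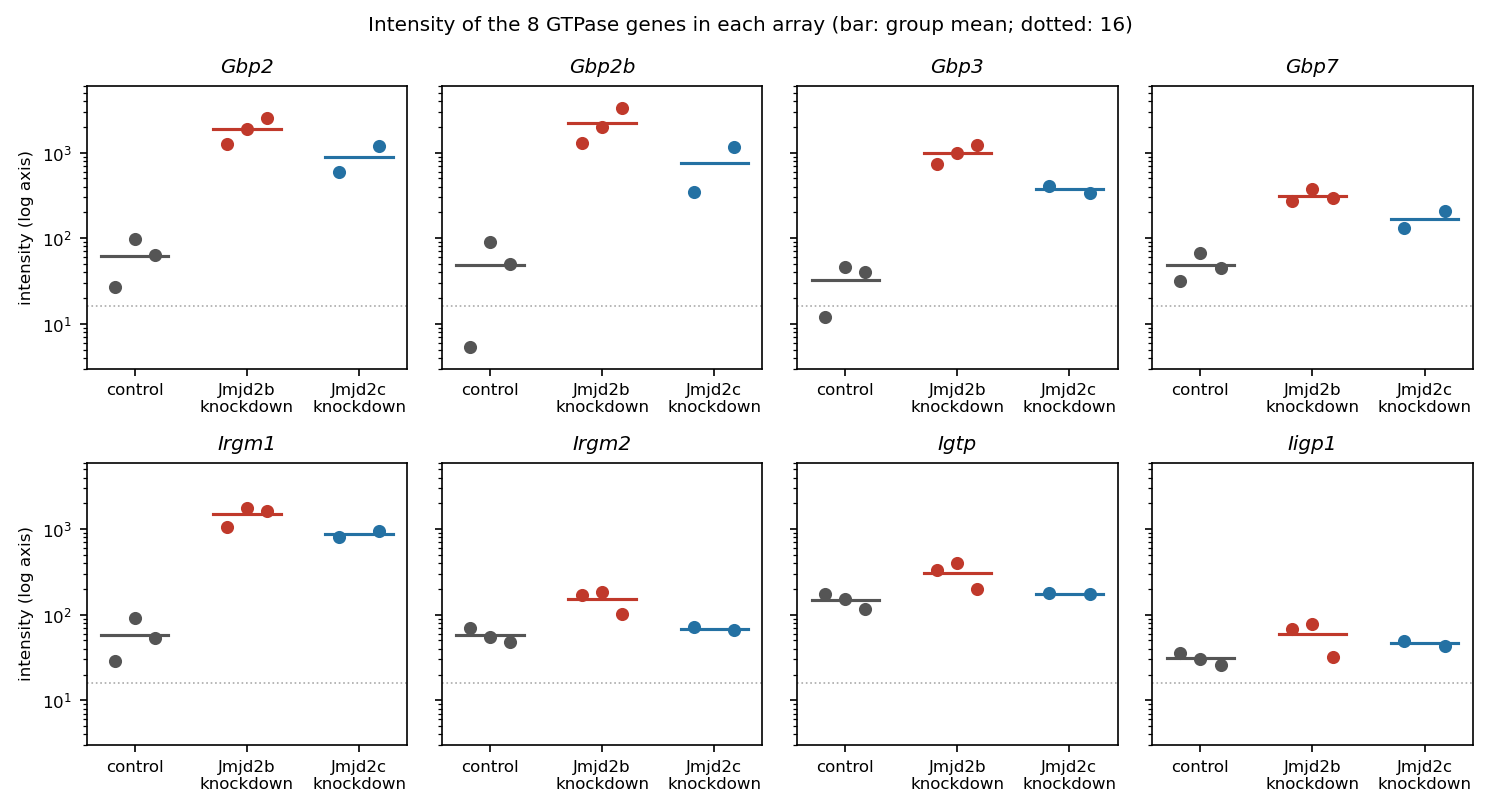
Intensity (log axis) of each of the 8 GTPase genes on each array, by group, with a point per array, a bar at the group mean and a dotted line at 16, the value added before taking log2. In the 5 panels of Gbp2, Gbp2b, Gbp3, Gbp7 and Irgm1 the groups do not overlap, while in Irgm2 the Jmjd2c knockdown arrays, at 72.5 and 65.3, lie on either side of the highest control at 70.6.

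In the Jmjd2b knockdown 7 of the 8 genes passed the test across all genes in the upward direction (limma, adjusted p under 0.05), as did 11.6% of all genes, and in 7 of 8 all knockdown arrays lay above all controls, as in 21% of all genes. In the Jmjd2c knockdown 5 of 8 passed, against 4.31% of all genes, and 7 of 8 did not overlap with the controls, against 17.4%. The genes were chosen with these contrasts known, and both contrasts share the control arrays, so nothing is read from the counts. The median log2 difference of the 8 genes was 3.39 in the Jmjd2b knockdown and 2.30 in the Jmjd2c knockdown, beside -0.03 and -0.02 over all genes. Igtp was not called in the Jmjd2b knockdown without control array 3 or without Jmjd2b knockdown array 1 or 2 (6 genes called each time), and without Jmjd2b knockdown array 3 all 8 were. With the replicate number as a block all 8 were called there.

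**Figure D2:**
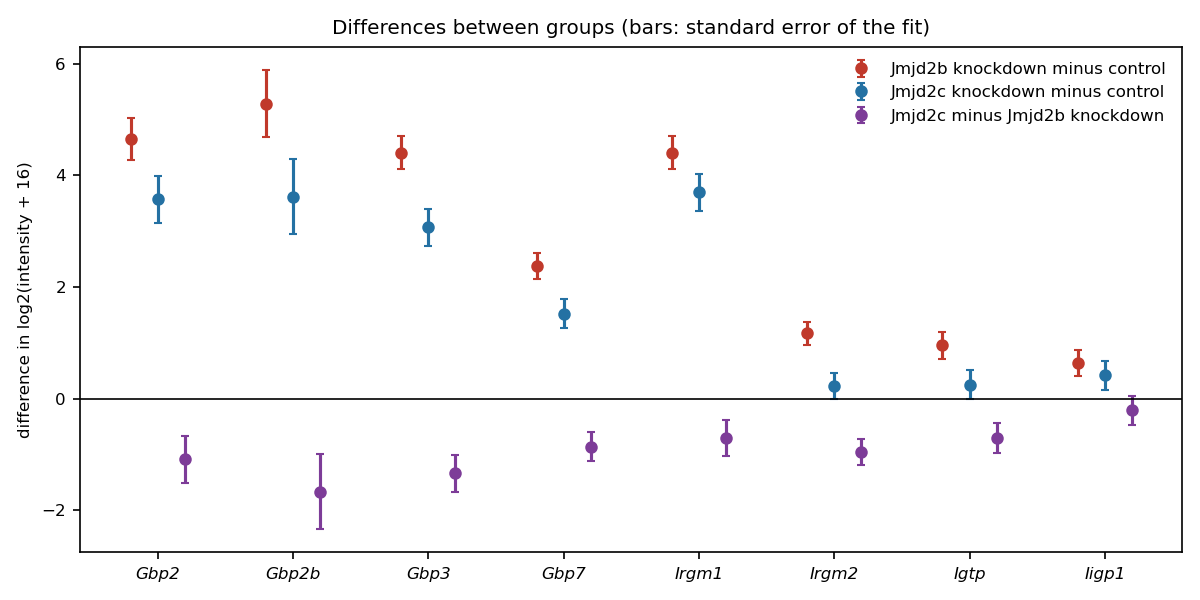
Difference in log2(intensity + 16) for each GTPase gene in the 3 comparisons between groups, with bars for the standard error of the fit. Against the control the points of Gbp2, Gbp2b, Gbp3 and Irgm1 lie above 3, those of Gbp7 at 2.38 and 1.52, and those of Irgm2, Igtp and Iigp1 at or under 1.17.

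Between the knockdowns, the Jmjd2c group was the lower in each of the 8 genes. All Jmjd2c arrays lay below all Jmjd2b arrays in 7 of 8, against 13.7% of all genes, with Iigp1 as the exception. The log2 differences, Jmjd2c minus Jmjd2b knockdown, ranged from -1.67 ± 0.67 in Gbp2b to -0.21 ± 0.26 in Iigp1, with a median of -0.91 (0.000426 over all genes). That of Gbp3 was -1.34 ± 0.33, that of Gbp2 -1.09 ± 0.43 and that of Irgm2 -0.95 ± 0.23. Several of these sizes rest on single arrays. Without Jmjd2c knockdown array 1, Gbp2b stood at -0.82, Gbp2 at -0.59 and Gbp7 at -0.56 (-0.86 with all arrays), and without Jmjd2c knockdown array 2 Gbp2b stood at -2.53. Iigp1 ran from -0.51 without Jmjd2b knockdown array 3 to -0.03 without Jmjd2b knockdown array 2. Of the 8 genes 0 passed the test over all genes (limma; 6 had an unadjusted p under 0.05), and 0.693% of all genes did.

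Within the sets of arrays that share exact values, the Jmjd2b knockdown was above the control in all 8 genes. In the set of control arrays 1 and 2 with Jmjd2b knockdown array 2 it ran from 0.93 (Iigp1) to 5.42 (Gbp2b), and in the set of control array 3 with Jmjd2b knockdown array 1 from 1.01 (Iigp1) to 4.32 (Gbp2b). The Jmjd2c knockdown shared no set with a control. In its set, with Jmjd2b knockdown array 3, the difference between the knockdowns was -2.36 for Gbp2b, -1.69 for Gbp3, -1.55 for Gbp2 and -0.86 for Irgm1, but -0.49 for Irgm2, -0.15 for Igtp and 0.38 for Iigp1. With the 3 sets as a block, the Jmjd2c knockdown exceeded the control by 2.90 for Gbp2, 2.58 for Gbp2b and 2.53 for Gbp3, and by 0.95 for Irgm2, 1.14 for Igtp and 1.35 for Iigp1. In that fit 0 of the 8 genes were called (0.0495% of all genes were). The low Jmjd2c values of Irgm2, Igtp and Iigp1 and the low value of Jmjd2b knockdown array 3 thus lie in the same array set, and set and group cannot be fully told apart there.

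The genes also differed in how they varied within a group. Gbp2, Gbp2b, Gbp3, Gbp7 and Irgm1 were each lowest in array 1 and highest in array 2 of the control, whereas Irgm2, Igtp and Iigp1 were each highest in control array 1 and lowest in control array 3. In the Jmjd2b knockdown, array 3 was the highest for Gbp2, Gbp2b and Gbp3 and the lowest for Irgm2, Igtp and Iigp1. Over the 8 arrays, log2 levels of Gbp2, Gbp2b, Gbp3, Gbp7 and Irgm1 correlated at 0.97 to 0.992 with each other, those of Irgm2, Igtp and Iigp1 at 0.857 to 0.977, and levels across these sets of genes at 0.55 to 0.786. After each group's mean was subtracted, the correlations were 0.51 to 0.993, 0.966 to 0.974 and -0.667 to 0.0987. These values describe 8 points that share arrays, and the split of the genes was made after the values were seen. It does not follow the families, since Irgm1 lay with the guanylate-binding proteins.

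**Figure D3:**
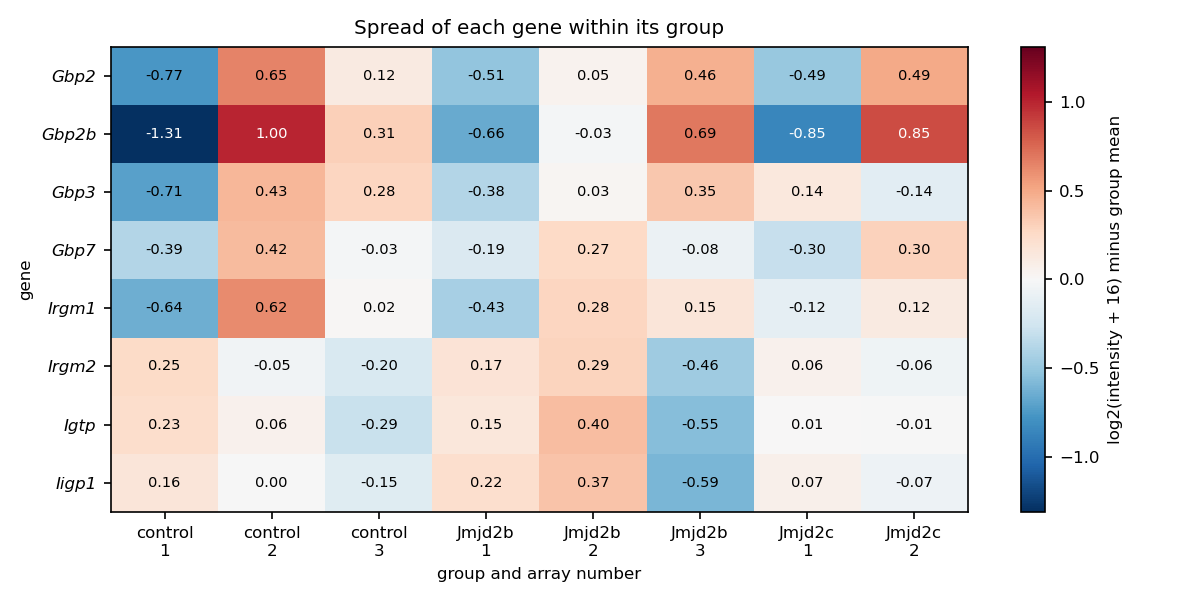
Deviation of each GTPase gene from the mean of its group, in log2(intensity + 16), with a column per array and a row per gene. The upper 5 rows are negative in control array 1 (down to -1.31 in Gbp2b) where the lower 3 are positive, and Jmjd2b knockdown array 3 is positive in Gbp2, Gbp2b and Gbp3 and negative in Irgm2, Igtp and Iigp1.

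Other probe sets bear on how far each transcript can be told from its relatives. For Gbp2 the value above comes from probe set 1435906_x_at, whose suffix marks probes that can bind related transcripts. The other probe set, 1418240_at, gave log2 differences of 4.77 and 3.57 in the Jmjd2b and Jmjd2c knockdowns, close to 4.66 and 3.57. The a_at suffix of the probe sets of Gbp3 (1418392_a_at) and Iigp1 (1419043_a_at) marks transcripts that share their probes. For Gbp7 the probe sets differed: 1434380_at gave 2.38 and 1.52, and 1425156_at gave 0.67 and 0.05. The mean of both gave 1.53 and 0.78. In control arrays 1, 2 and 3, 1425156_at read 60.26, 66.65 and 56.43, where 1434380_at read 31.9, 67.7 and 45.4. Thus 1434380_at had the higher mean over the 8 arrays (178 against 79.5) through the knockdown arrays. The Jmjd2c knockdown arrays of 1425156_at, at 76.6 and 52.3, overlapped the controls. The second probe set of Iigp1 gave 0.91 and 0.35. Probe sets annotated to a member together with another gene numbered 0. A probe set shared by the relatives Tgtp1 and Tgtp2, effector GTPases that lie near Irgm1 on chromosome 11, read 27.2 to 40.9 in the control, 135 to 234 in the Jmjd2b knockdown and 102 to 158 in the Jmjd2c knockdown, without overlap between control and knockdown arrays. That is a log2 difference of 1.99 and 1.58. The probe set shared by Gbp4 and Gbp8 of the chromosome 5 cluster overlapped between groups, with 2.86 to 39.1, 31.1 to 44.2 and 40.6 to 44.0.

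Relatives measured by probe sets of their own gave few calls. Of 10 measured of 23 listed, 0 rose and 1 fell in the Jmjd2b knockdown (limma, adjusted p under 0.05; 2 had an unadjusted p under 0.05), where 24.4% of all genes were called. The gene that fell was Atl1, an atlastin, a GTPase of the same superfamily that fuses membranes of the endoplasmic reticulum, with a log2 difference of -0.79 ± 0.17 (adjusted p = 0.00915). Gbp6 and Gbp8 had values of 0.24 ± 0.15 and 0.29 ± 0.16. Ifi47, an effector GTPase also known as Irgd, had 0.32 ± 0.16, and the antiviral dynamin-like GTPases Mx1 and Mx2 had -0.04 ± 0.13 and -0.11 ± 0.11. Irgc1, Irgq and Gm4951, further members or relatives of the immunity-related family, had -0.50 ± 0.19, -0.24 ± 0.16 and -0.31 ± 0.22, and the atlastin Atl3 had 0.06 ± 0.18. In the Jmjd2c knockdown 0 of the 10 passed (1 had an unadjusted p under 0.05), where 9.59% of all genes were called. Gbp6, Gbp8, Ifi47, Mx1 and Mx2 were dim, with control means of 2.56 to 32.6.

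The genes beside the GTPase genes on the chromosomes are given next, with the share of all genes called, and nothing is read from their counts. For the Gbp genes on chromosome 3, for Irgm1, and for Igtp with Irgm2, the 5 nearest measured genes on each side were taken from the order in the RefSeq table, a choice made after the data were seen. With the Jmjd2b hairpin 3 of these 30 genes rose and 3 fell (limma; 24.4% of all genes were called), with a median log2 difference of 0.08. Around Irgm1, 0 of 10 were called, with values from -0.32 to 0.33 (Irgm1 itself 4.41). These 10 include the relative Ifi47 (0.32). Tgtp1 and Tgtp2, near Irgm1, share a probe set and so were not among the genes counted. That probe set was higher by 1.99 in the Jmjd2b knockdown and by 1.58 in the Jmjd2c knockdown. The nearest measured genes on either side of the Gbp genes, Pdlim5 (0.08 ± 0.15) and Kyat3 (-0.44 ± 0.13, adjusted p = 0.0336), did not rise. Further out, Lmo4, a LIM domain cofactor of transcription, rose by 1.89 ± 0.18 (adjusted p = 1.36e-04) and Hs2st1, a heparan sulfate sulfotransferase, by 1.03 ± 0.16 (adjusted p = 0.00135). Kyat3 lost its call without any single control or Jmjd2b knockdown array, with values of -0.50 to -0.34. Beside Igtp and Irgm2, Sh3bp5l rose by 0.64 ± 0.12, and Cnot8 (-0.63 ± 0.15) and Zfp692 (-0.67 ± 0.15) fell. Cnot8 was not called without Jmjd2b knockdown array 1 or 2 or control array 3 (-0.61, -0.54 and -0.59), nor Zfp692 without Jmjd2b knockdown array 2 (-0.58). In the Jmjd2c knockdown, where 9.59% of all genes were called, 2 of the 30 rose, Lmo4 (0.89 ± 0.20) and Hs2st1 (0.78 ± 0.18). Both calls were lost without Jmjd2c knockdown array 2 (0.68 and 0.53) or control array 3 (0.83 and 0.77), that of Lmo4 also without control array 2 (0.86) and that of Hs2st1 without control array 1 (0.71). With the array sets as a block neither was called (Lmo4 0.74, adjusted p = 0.362; Hs2st1 0.99, adjusted p = 0.241). Hs2st1 was also not called in the Jmjd2c knockdown with the array type block (0.88) or with the mean of its probe sets, which gave 0.68 and 0.29 in the Jmjd2b and Jmjd2c knockdowns.

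**Figure D4:**
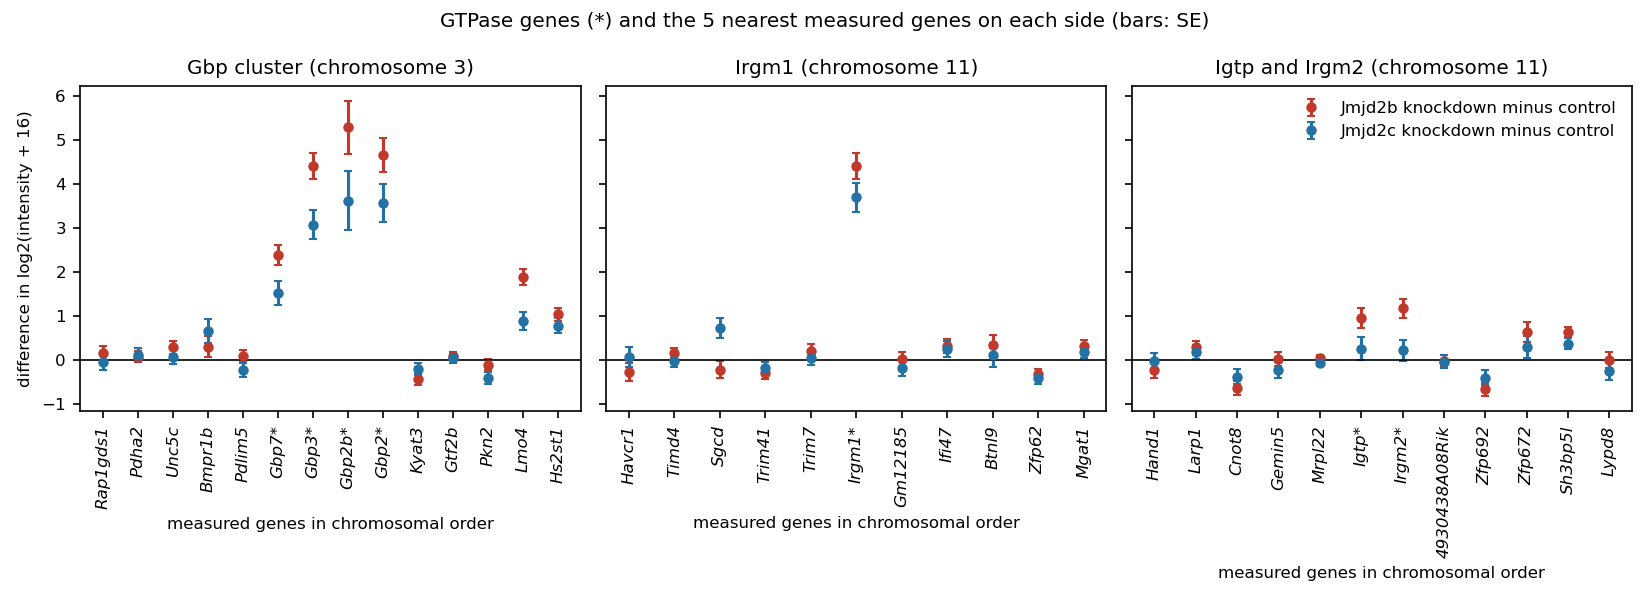
Difference in log2(intensity + 16) from the control for the GTPase genes (marked *) and the 5 nearest measured genes on each side, in chromosomal order at equal spacing, with bars for the standard error. The Gbp genes (1.52 to 5.29) and Irgm1 (3.70 and 4.41) stand above the nearest neighbours shown, and Lmo4 (1.89 in the Jmjd2b knockdown) lies apart at the edge of the Gbp panel. Tgtp1 and Tgtp2, which share a probe set, are not shown.

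Among genes of interferon-gamma reception and signalling, the transcripts of the ligand and receptor did not pass the test in either knockdown, and the transcription factor Irf1 rose in both. With the Jmjd2b hairpin 1 of 14 measured genes rose and 4 fell (35.7%, beside 24.4% of all genes). With the Jmjd2c hairpin 1 rose and 1 fell (14.3%, beside 9.59% of all genes). Irf1, which binds the IRF-type element, had 805 ± 153 in the control (SD, n = 3) and 2412 ± 435 in the Jmjd2b knockdown (n = 3), and 1899 and 1935 in the Jmjd2c knockdown arrays, all above the highest control at 973. Its log2 differences were 1.57 ± 0.15 (limma, adjusted p = 1.54e-04) and 1.25 ± 0.17 (adjusted p = 0.00423), and the latter was not called with the array sets as a block (1.60, adjusted p = 0.0922). The probe set of Ifng, the gene for interferon-gamma itself, read 1.33 to 6.34 on all arrays. The receptor genes Ifngr1 and Ifngr2 had log2 differences of -0.05 ± 0.12 and 0.05 ± 0.15 in the Jmjd2b knockdown and of 0.13 ± 0.13 and 0.16 ± 0.17 in the Jmjd2c knockdown. The receptor kinases Jak1 (-0.33 ± 0.19) and Jak2 (0.58 ± 0.29) and the inhibitor Socs1 (0.00 ± 0.14) did not pass in the Jmjd2b knockdown. Neither did the factors Stat3 (-0.34 ± 0.18) and Irf2 (0.37 ± 0.25) or Pias1 (0.09 ± 0.12), an inhibitor of STAT factors.

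Among those that fell with the Jmjd2b hairpin, Irf8, a factor of myeloid cells, had a log2 difference of -1.44 ± 0.27 (limma, adjusted p = 0.00384). The feedback inhibitor Socs3 had -1.01 ± 0.20 (adjusted p = 0.00553), Irf9, a subunit of the type I interferon factor, -0.80 ± 0.21 (adjusted p = 0.0209), and the phosphatase Ptpn2 -0.29 ± 0.08 (adjusted p = 0.0209). The direction of Ptpn2 was not kept: it was 0.06 with the mean of its probe sets and 0.29 without probe sets for shared transcripts. Ptpn2 was also not called without Jmjd2b knockdown array 2 (-0.23), control array 2 (-0.27) or control array 3 (-0.28). Irf9 was not called without control array 1 (-0.81) or 3 (-0.70), nor without array 2 (-0.86) or 3 (-0.69) of the Jmjd2b knockdown, nor with the array sets as a block (-0.72). Irf8 fell in the Jmjd2c knockdown too (-1.12 ± 0.30, adjusted p = 0.0445). That call was lost without either Jmjd2c knockdown array (-1.15 and -1.09), without control array 1 (-0.98) or 3 (-1.07), without array 2 of the Jmjd2b knockdown (-1.12), and with the replicate block (-0.94) or the array sets (-2.05) as a block. The summed intensity of the myeloid markers was lower in both knockdowns as well, mostly through Cd68 and Adgre1. The median log2 difference of the 10 markers was 0.03 in the Jmjd2b knockdown and -0.14 in the Jmjd2c knockdown. The part of the myeloid signals in the fall of Irf8 was not tested.

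Of 25 measured other genes known to be induced by interferons, 12 rose and 3 fell with the Jmjd2b hairpin, with a median log2 difference of 0.63 (-0.03 over all genes). With the Jmjd2c hairpin 3 rose and 2 fell, with a median of 0.01 (-0.02 over all genes). The share called was 60% with the Jmjd2b hairpin and 20% with the Jmjd2c hairpin, beside 24.4% and 9.59% of all genes. The difference between the counts of the hairpins was not tested. Cxcl10, a chemokine for T cells, had 11.6 ± 5.61 in the control and 276 ± 169 in the Jmjd2b knockdown (SD, n = 3 each) but 38.3 and 28.2 in the Jmjd2c knockdown arrays. Its log2 difference from the control was 3.27 ± 0.33 with the Jmjd2b hairpin (limma, adjusted p = 1.70e-04) and 0.85 ± 0.37 with the Jmjd2c hairpin (adjusted p = 0.194). Cxcl10 was lower in the Jmjd2c than in the Jmjd2b knockdown by -2.43 ± 0.37 (adjusted p = 0.0254). Without Jmjd2b knockdown array 2 or any single control array that call was lost, with values of -2.67 and -2.43. Cxcl11 rose by 2.28 ± 0.17 in the Jmjd2b knockdown (adjusted p = 5.70e-05) and by 1.28 ± 0.19 in the Jmjd2c knockdown (adjusted p = 0.00552), and the mean of its probe sets gave 1.28 and, not called, 0.46. Psmb8, an immunoproteasome subunit, rose from 14.5 ± 9.35 to 329 ± 92.4 in the Jmjd2b knockdown (3.50 ± 0.41, adjusted p = 3.54e-04), and Oasl2 by 2.31 ± 0.25 (adjusted p = 2.41e-04). Cxcl9 and Ciita, which are known as sensitive targets of interferon-gamma, had values of -0.01 ± 0.16 and -0.12 ± 0.20 in the Jmjd2b knockdown.

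Of 15 measured genes of the type I interferon pathway and of nucleic acid sensing, 4 rose and 4 fell in the Jmjd2b knockdown (53.3%, beside 24.4% of all genes). In the Jmjd2c knockdown 1 rose and 1 fell (13.3%, beside 9.59% of all genes). The RNA sensor Ifih1 (MDA5) rose in the Jmjd2b knockdown from 12.8 ± 2.85 to 80.4 ± 17.4 (SD, n = 3 each). Its log2 difference was 1.73 ± 0.20 (limma, adjusted p = 3.68e-04). Ifnar1, a chain of the type I receptor, rose by 0.80 ± 0.15 (adjusted p = 0.0034), while the kinase Tyk2 (-0.79 ± 0.13, adjusted p = 0.00171) and Stat2 (-0.89 ± 0.16, adjusted p = 0.00283) fell. In the Jmjd2c knockdown Ifnar1 rose by 0.65 ± 0.16 (limma, adjusted p = 0.0349). That call was lost without control array 1 (0.58) or 3 (0.63) or Jmjd2b knockdown array 1 (0.65). It was also lost with the replicate number (0.60), the array type (0.78) or the array sets (0.89) as a block. With only the 2 groups compared in the fit (0.65) the call was lost too. Without Jmjd2c knockdown array 2 the difference was 0.596. Ifnb1, the gene for interferon-beta, fell by 0.47 ± 0.14 (adjusted p = 0.0386), from 44.6 to 52.3 in the control to 22.9 to 34.4 in the Jmjd2b knockdown. Leaving out any single control or Jmjd2b knockdown array ended its call (-0.54 to -0.35), as did the replicate block (-0.47, adjusted p = 0.063) and blocks for the array sets (-0.36) or the array type (-0.46). Stat2 fell in the Jmjd2c knockdown as well (-1.03 ± 0.17, adjusted p = 0.00856). With the mean of all probe sets Tyk2 stood at -0.43, and Stat2 at -0.53 and -0.61 in the Jmjd2b and Jmjd2c knockdowns.

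Of 21 genes that act with these GTPases, in the autophagy-type conjugation that guides them to vacuoles, in the prenylation that anchors several of them and in inflammasomes, 4 rose and 6 fell in the Jmjd2b knockdown, and 2 rose and 2 fell in the Jmjd2c knockdown. The shares called were 47.6% and 19%, beside 24.4% and 9.59% of all genes. The genes of this list with the smallest p in the Jmjd2b knockdown all fell. The ubiquitin-like proteins Map1lc3b, Atg12 and Gabarapl1 had values of -0.35 ± 0.07 (limma, adjusted p = 0.00496), -0.57 ± 0.12 (adjusted p = 0.0067) and -0.72 ± 0.17 (adjusted p = 0.0121). Gabarapl1 was not called without Jmjd2b knockdown array 2 (-0.68), without control array 3 (-0.66) or with the array sets as a block (-0.75), nor Map1lc3b without probe sets for shared transcripts (-0.34). The mean of its probe sets gave -0.36 for Atg12. Pycard, the inflammasome adaptor ASC, fell in both knockdowns (-1.19 ± 0.24, adjusted p = 0.00592, and -1.45 ± 0.27, adjusted p = 0.0117). The latter was not called without control array 3 (-1.40) or with the mean of all probe sets (-0.47, and -0.43 in the Jmjd2b knockdown), and stood at -0.86 without Jmjd2c knockdown array 2. Over the 5 lists, the Jmjd2b knockdown had 21 of 85 measured genes called higher and 18 called lower, 45.9% beside 24.4% of all genes, and the Jmjd2c knockdown 7 and 6, 15.3% beside 9.59%. The first count fell to 24 genes when control array 3 or array 2 of the Jmjd2b knockdown was left out, and the second to 4 without control array 3 and to 6 without control array 1. With the array sets as a block 0 of the 85 were called in the Jmjd2c knockdown (limma; 15 had an unadjusted p under 0.05). Between the knockdowns 0 rose and 2, Cxcl10 and Ifih1, fell (2.35%, beside 0.693% of all genes). The call of Ifih1 (-1.22) was lost without any single array apart from Jmjd2c knockdown array 2, with values from -1.37 to -0.88.

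**Figure D5:**
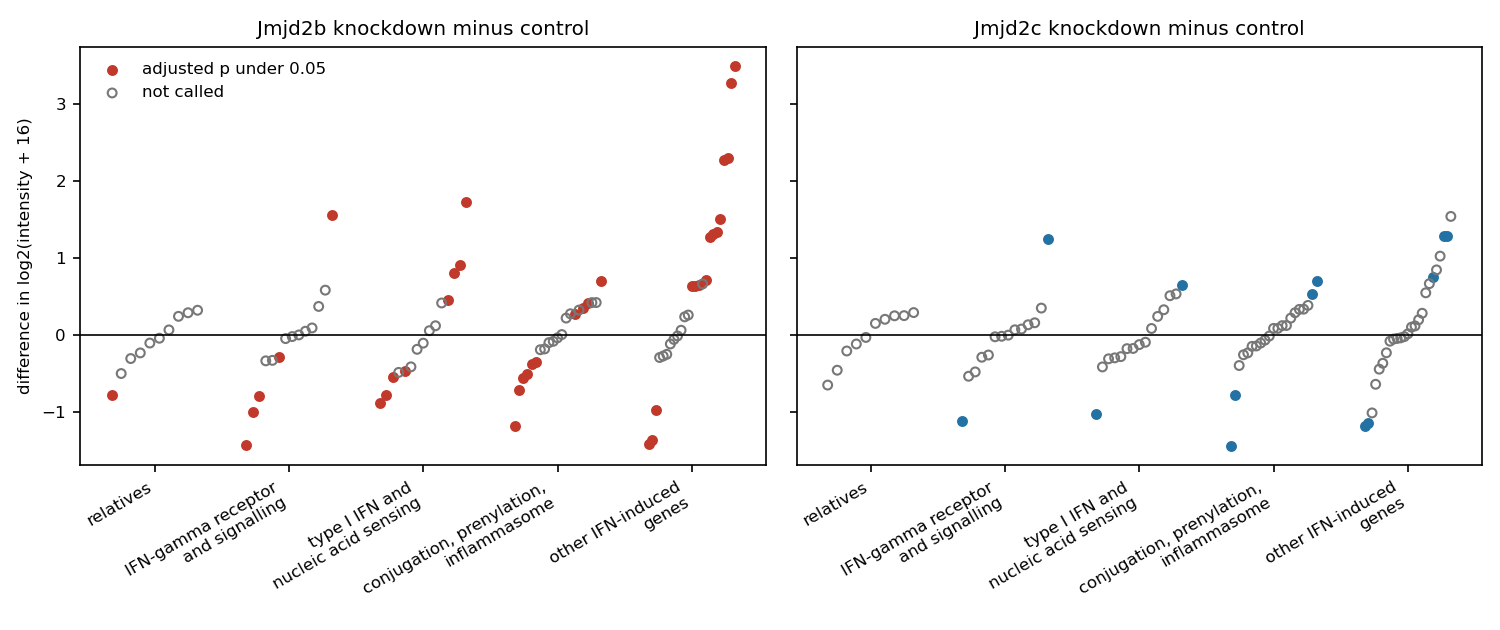
Difference in log2(intensity + 16) from the control for every measured gene of the 5 pathway lists, ordered by size within a list, with filled points for genes called at an adjusted p under 0.05 (limma). The 4 highest points of the Jmjd2b panel are Psmb8, Cxcl10, Oasl2 and Cxcl11 of the other interferon-induced genes (2.28 to 3.50), and in the Jmjd2c panel Irf1 (1.25) is the highest called point of the interferon-gamma list.

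The 5 genes most like Gbp2 over the 8 arrays were taken from 8894 other genes above the median level. Of the 85 measured genes of the 5 lists only 44 lay above that level, so nothing is read from the absence of list genes. Plxdc2 (Pearson r = 0.995), Vcl (0.995), Sulf1 (0.994), Eif4g3 (0.994) and Pea15a (0.994) correlated most closely with Gbp2. Plxdc2, a membrane protein, read 24.8, 60.7 and 34.3 in the control arrays, 233, 351 and 429 in the Jmjd2b knockdown arrays and 148 and 238 in the Jmjd2c knockdown arrays, in the same order of arrays within each group as Gbp2. For the mean of the 8 standardised profiles the closest were Chd6 (0.997), Tdrd3 (0.997), Ppil3 (0.994), the immunoproteasome subunit Psmb10 (0.991) and Aida (0.991). Psmb10 stood on the list of other interferon-induced genes. Such correlations include the differences between groups, and all points share the same 8 arrays.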

How the data were processed

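The deposited table holds linear intensities, a value per probe set and array, from biotin-labelled cRNA per the labels' protocols. The authors' probe summary, background correction and scaling are not given in the sources used here. Array medians lay between 44.7 and 46.6, and values between 0.19 and 18574. The number of arrays limits the precision. Probe sets were named by the platform annotation (34945 with exactly 1 symbol, 932 with several, 9160 with none listed). RefSeq tables (GRCm38.p6) gave gene order and promoters.

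On the log2(value + 16) scale used here, changes of dim genes are understated. No further normalization or filter was applied. Group means of all 8 arrays were fitted in limma 3.58.1 (R 4.3.3; lmFit, eBayes with trend), two-sided, with Benjamini-Hochberg adjustment over 18193 genes and a threshold of 0.05; the fit was tested on simulated data. Tables were made with Python 3.11.15 and pandas 2.3.3.

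Members, lists and alternatives were chosen with earlier results of these data known. The rule for named genes took all members, the measured relatives and interferon-gamma signalling genes, up to 4 called genes per other list by smallest p, Ifng, Ifnb1, Cxcl9, Cxcl10 and Ciita, and the 5 genes most like Gbp2 and like the mean profile. Deviations from group means of same-numbered control and Jmjd2b knockdown arrays correlated at 0.176, 0.111 and 0.116, so the titles' numbers were treated as pairing them in a blocked alternative. For the Jmjd2c knockdown the values were 0.0408 and 0.0633 with the control, and -0.0597 and 0.142 with the Jmjd2b knockdown. Jmjd2b knockdown array 3 and Jmjd2c knockdown array 1, whose numbers differ, gave 0.167, so a pairing of the Jmjd2c arrays by number is uncertain.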

Additional observations from a re-analysis of the deposited data

How the results depend on the processing

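Each of the 8 GTPase genes measured under a setting kept a positive difference from the control, in both knockdowns and under every alternative run. The size depended on the scale. The median over the genes in the Jmjd2b knockdown, 3.39, was 3.75 with a pseudocount of 1, 2.59 with 64, 2.97 with the mean of all probe sets, 2.38 without probe sets for shared transcripts (which leaves out Gbp3) and 4.41 over the 6 genes above the median level. In the Jmjd2c knockdown, 2.30 became 2.73, 1.61, 1.93, 1.52 and 3.32 in the same order. The filter on level uses all arrays, and Gbp2, Gbp2b, Gbp3, Gbp7 and Irgm1 pass it through the knockdown arrays alone, so the medians 4.41 and 3.32 support nothing. Leaving out 1 array at a time gave 3.12 to 3.61, 1.99 to 2.51, and -1.03 to -0.65 between the knockdowns. Iigp1 between the knockdowns was 0.38 with the array sets as a block.

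Of the pathway genes, 24 to 44 were called in the Jmjd2b knockdown without 1 array, 4 to 19 in the Jmjd2c knockdown and 0 to 11 between them. In the Jmjd2c knockdown the 13 became 8 with a block for arrays whose values stop at 1 and 0 with the array sets as a block (limma; 15 had an unadjusted p under 0.05). Between the knockdowns the 2 became 0 with the array type block (15 unadjusted) or with only the 2 groups fitted (16 unadjusted). They became 1 with the array set block, a pseudocount of 1, quantile normalization, only the brighter genes or no shared-transcript probe sets. Ptpn2 in the Jmjd2b knockdown turned to 0.0621 with the mean of its probe sets and 0.29 without shared-transcript probe sets. The cause of these changes was not tested. The replicate block gave 38, 11 and 2 calls. Among the pathway and neighbour genes named with a call it ended the calls of Irf8 (-0.94) and Ifnar1 (0.60) in the Jmjd2c knockdown, Kyat3 (-0.44) and Ifnb1 (-0.47) in the Jmjd2b knockdown and Ifih1 (-1.28) between the knockdowns, and no other. A group of 2 arrays reduced to 1 was assumed to vary like the others.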

Other observations

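The motif of GAAA, any 2 bases and GAAA, present in all 7 promoters of the GTPase genes that were read, was not common among the other genes called in the same direction. With the GTPase genes left out, it stood in 4.24% of the 1676 genes with a promoter that were called higher in the Jmjd2b knockdown, in 2.83% of the 1906 called lower and in 3.58% of the 14445 tested. Among the 112 such genes called and at least 4-fold higher it stood in 4.46%. Among the listed interferon-induced genes outside the GTPases, 7 of 18 promoters held it (38.9%). These shares describe letters in a short window and were not tested.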
